A study of Mus musculus with 6 samples.

Results

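The genes described here encode the nuclear subunits of the oxidative phosphorylation (OXPHOS) machinery. They were taken from the deposited gene table as protein-coding genes whose symbols belong to the Nduf (a, b, c, s and v), Sdh, Uqcr, Uqcc, Cyc1, Cycs, Cox4 to Cox8 and Atp5 families. The rule uses names alone, no measured value, and found 92 genes among the 39089 in the table. By complex these were 38 of complex I, 4 of complex II, 9 of complex III, 20 of complex IV and 17 of complex V. The remaining genes were Cycs, which encodes cytochrome c, and 3 Uqcc genes, which encode assembly factors of complex III and not subunits. Ndufa4 and its paralogue Ndufa4l2, once assigned to complex I, were counted with complex IV.

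RAW264.7, the cell line behind the libraries, is a macrophage-like mouse leukemia line, labelled WT. All 6 samples received lipopolysaccharide (LPS, the endotoxin of Gram-negative bacteria) for 48 h at a dose of 100 ng/mL, and 3 of them form the LPS group. The other 3 form the LIPUS group, which in addition had 2 sessions of low-intensity pulsed ultrasound, 24 h apart, each lasting 25 min at an intensity of 45 mW/cm2. Cells without LPS were not analysed here, so every value describes LPS-treated cells, and the labels do not say whether the 3 samples of a group were separate cultures. The comparison asks whether ultrasound is accompanied by a different level of these mRNAs. In bulk RNA, fewer cells and less RNA per cell cannot be told apart.

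Complexes I and II pass electrons from NADH and succinate to ubiquinone, complex III passes them to cytochrome c, and complex IV passes them on to oxygen. Complexes I, III and IV pump protons across the inner mitochondrial membrane, and complex V, the ATP synthase, uses the gradient to make ATP. In macrophages, LPS is known for shifting ATP production from respiration towards glycolysis. Most subunits are encoded in the nucleus; the subunits encoded by mitochondrial DNA were not analysed here.

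Nuclear OXPHOS genes lie apart in the genome, and short promoter elements bound by NRF1, by GABP of the ETS family and by YY1 are known to be shared by many of them. RefSeq promoter windows on GRCm38.p6 (250 bases before to 50 bases after an annotated start) were found for 74 of the 92 genes. The stretches below show 1 or 2 such elements in a gene of each complex and in Cycs. The genes were picked for holding a match. In each complex this was the tested gene with the highest TPM among those with a match wholly before the start, and Atp5j was added. Each is printed 5′ to 3′ on the gene's strand, and capitals mark the match to the core: GCATGCGC for NRF1, CCGGAAG for ETS and AAGATGGC for YY1, or their reverse complements.
Ndufa6 (complex I; NRF1, chr15:82354356-82354385, minus strand): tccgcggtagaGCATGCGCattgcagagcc
Sdhd (complex II; ETS, chr9:50603877-50603906, minus strand): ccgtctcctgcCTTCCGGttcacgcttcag
Uqcrh (complex III; ETS, chr4:116075071-116075100, minus strand): actacgaggagtatgccgcaCTTCCGGcca
Cycs (cytochrome c; NRF1, chr6:50566611-50566640, minus strand): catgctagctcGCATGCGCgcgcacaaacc
Cox6a1 (complex IV; ETS, chr5:115348959-115348988, minus strand): cgtccccatttccgCTTCCGGcgcgccggt
Atp5g2 (complex V; NRF1 on both strands, overlapping, chr15:102671070-102671099, minus strand): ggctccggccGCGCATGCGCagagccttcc
Atp5j (complex V; YY1, chr16:84835046-84835075, minus strand): aaagtgtaggaAAGATGGCggagtcttagc
Atp5j (complex V; ETS, chr16:84835019-84835048, minus strand): agctgagggacCCGGAAGcacttaccctcc

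The matches begin between position -88 (Atp5j, YY1) and position -10 (Uqcrh) relative to the annotated start. The stretches of Ndufa6, Sdhd and Cycs lie outside annotated GENCODE exons, and each of the others overlaps an annotated exon of its own gene. The Atp5j ETS stretch also overlaps an exon of Gabpa. The RefSeq start of Gabpa lies head to head with the Atp5j start of that window, with 147 bases between them. Atp5j has a further window at chr16:84835576-84835875, beyond the Gabpa start at position 84835124, without a match to these cores. Gabpa encodes the DNA-binding subunit of GABP itself. At least 1 of the 3 cores was present on either strand in 47.1% of the 70 OXPHOS genes that had a window and passed the filter on low counts. The share was 28.9% of the 10029 such genes in the whole table. It differed by complex: 14 of 32 genes in I, 2 of 3 in II, 3 of 5 in III, 3 of 11 in IV and 9 of 15 in V. By core, NRF1 was found in 15.7% against 5.89%, YY1 in 15.7% against 5.59% and ETS in 24.3% against 20.4%. The ETS core was found in 12.5% of the complex I genes. The Sp1 core GGGCGG, searched in the same way, was found in 42.9% of the OXPHOS genes and 66.1% of all genes. Within complex I the YY1 core was present in 7 of 32 windows, within complex V in 3 of 15, and within complexes II, III and IV in 0 of 19. At a background of 5.59%, 19 windows are too few for the lack of a match to set those complexes apart. A match describes letters in a window and not binding.

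Of the 92 genes, 84 passed the filter on low counts, which kept 12571 of the 39089 genes. Library totals were 14171061 to 15956693 counts. The cell type label was checked against markers: 12 of 12 macrophage genes were detected, at 11522 to 13174 CPM (counts scaled to library size) in sum, while 14 markers of other cell types summed to 1.45 to 2.54 CPM, with Ms4a1, Ncr1, Epcam, Krt18, Hbb-bs and Alb at 0. The 12 macrophage markers had a median log2 fold change of -0.03 in LIPUS against LPS, with 4 positive and 8 negative. Those with the smallest p, Ptprc and Cd68, had log2 fold changes of 0.15 ± 0.05 and -0.05 ± 0.06. Col1a1 (fibroblast) and S100a8 (neutrophil), the tested ones of the other cell types, had -1.34 ± 0.46 and 0.49 ± 0.36. Of these lists 0 markers passed, and their part in the results was not tested. LIPUS libraries 2 and 3 stood apart from each other more than any other pair within a group. The chi-square of their counts per degree of freedom was 9.17, against 2.54 to 4.55 for the other pairs within groups.

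The 92 genes made up between 2.29% and 2.40% of all TPM, the deposited measure of level per unit of gene length. Their summed level was 23749, 23786 and 23596 TPM in LPS libraries 1 to 3 and 23562, 24016 and 22942 TPM in LIPUS libraries 1 to 3. LIPUS library 2 was the highest of the 6 and LIPUS library 3 the lowest, so the groups overlapped. The ratio of the group means was 0.991 ± 0.023 (SD from the spread within both groups, n = 3 each). These genes were well expressed: 82 of the 84 lay above the median TPM of all tested genes. Of the 500 genes with the highest TPM, 25 were OXPHOS genes, and of the 100 highest, 0 were; Cox4i1 ranked 104.

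Levels per gene differed between the complexes. The median tested subunit had 138 TPM in complex I, 207 in complex II, 225 in complex III, 384 in complex IV and 326 in complex V. In sum, complex IV genes took 33.5% of the OXPHOS TPM, complex V 30.1%, complex I 20.9%, complex III 10.8% and complex II 3.49%. The ratios between complexes overlapped between the groups for each complex. The median complex IV subunit stood at 2.82 ± 0.06 times the median complex I subunit in LPS (SD, n = 3) and at 2.78 ± 0.04 times in LIPUS. The ratio for complex V was 2.38 ± 0.06 and 2.35 ± 0.02, for complex III 1.65 ± 0.09 and 1.63 ± 0.02, and for complex II 1.49 ± 0.02 and 1.53 ± 0.11. TPM divides by the deposited gene length, which for some genes is much longer than the transcript that holds nearly all counts. Ndufb8, an accessory subunit of complex I, has a listed length of 2332 bases, but its best-counted transcript has 682 bases, and on that length its level was 251 instead of 73.3 TPM. With the length of the best-counted transcript for every gene, an alternative chosen after seeing the data, complex V stood at 2.47 and complex IV at 2.51 times complex I. This alternative does not correct genes such as Cox5a, where a shorter transcript holds nearly the same counts as the best-counted one.

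**Figure D1:**
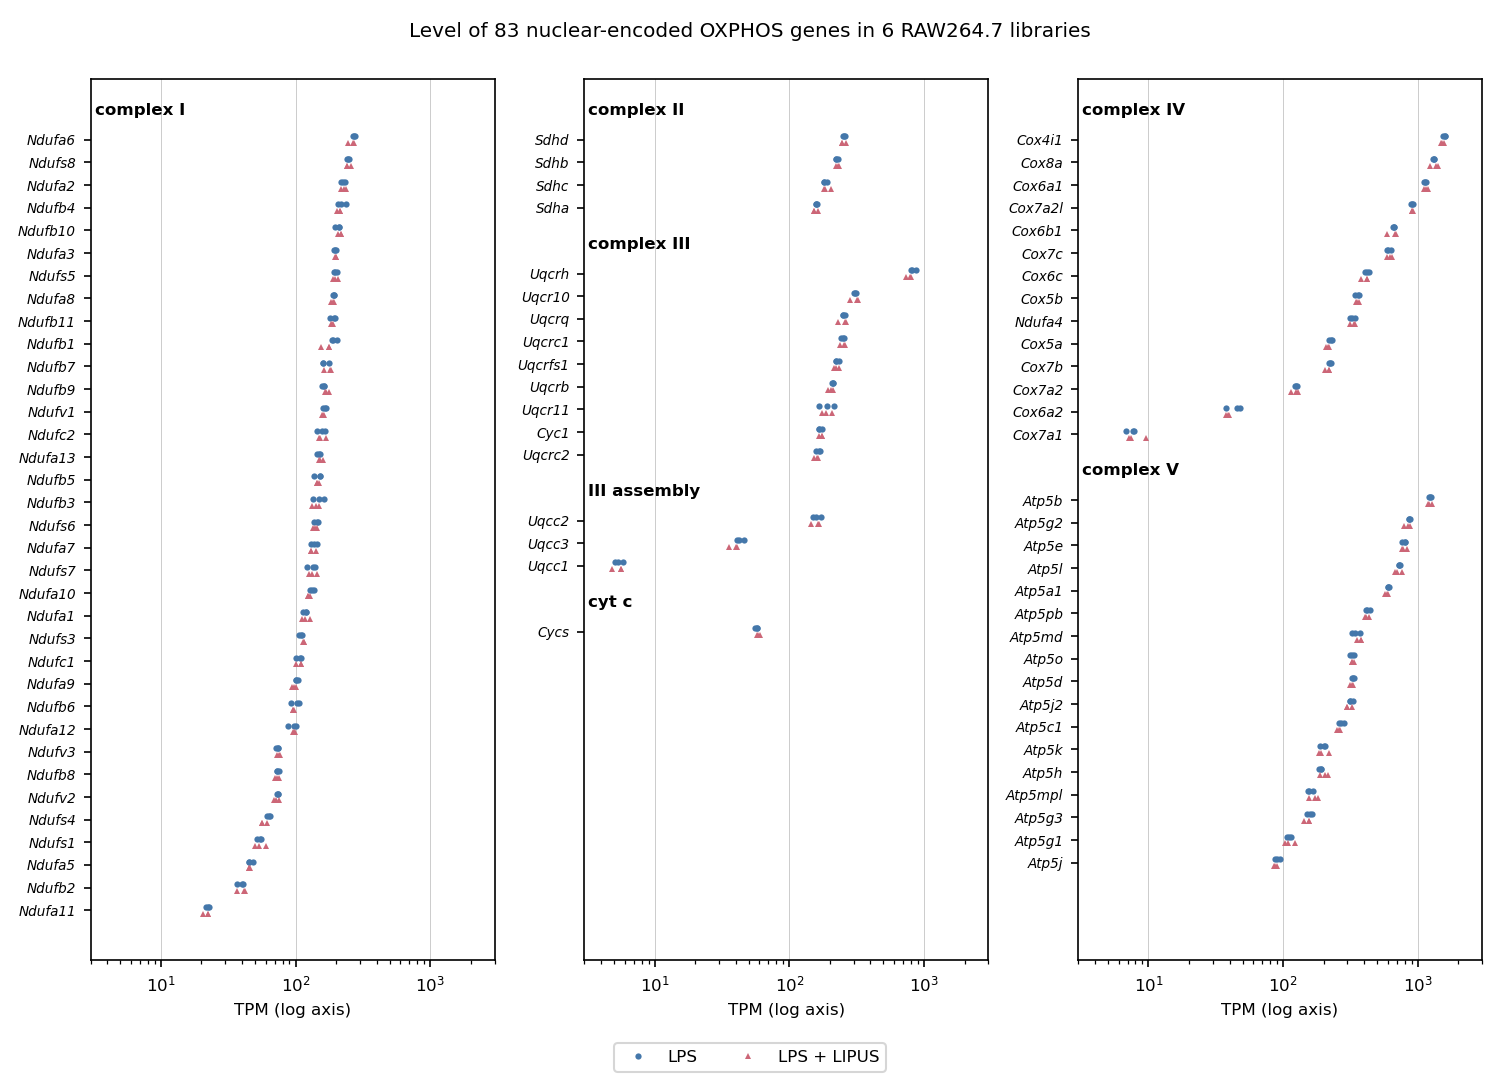
Level of 83 of the 84 tested genes, in TPM on a log axis, with 1 symbol per library (blue circles, LPS; red triangles, LPS + LIPUS), grouped by complex and ordered by mean level. The libraries of both groups lie on top of each other for nearly every gene, and the genes run from Uqcc1 at 5.38 TPM to Cox4i1 at 1550 TPM.

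No OXPHOS gene passed the test between LIPUS and LPS. By edgeR's quasi-likelihood test with Benjamini-Hochberg adjustment over 12571 genes, 0 of 84 had an adjusted p under 0.05, and the smallest adjusted p among them was 0.999. The same held for the whole table, where 0% of the genes passed. At an unadjusted p under 0.05, 1 OXPHOS gene was lower (background 1.61% of all tested genes) and 0 were higher (background 2.99%). DESeq2 called 0 of 84 as well, with 0 at an unadjusted p under 0.05. The log2 fold changes ran from -0.20 to 0.09, with a median of -0.03 against -0.01 for all tested genes. The 95% interval lay within a 1.5-fold change in either direction for 83 of 84 OXPHOS genes, the exception being Cox7a1, and for 10066 of the 12571 tested genes. The median standard error was 0.07 on the log2 scale, against 0.09 over all tested genes.

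More fold changes were negative than positive, 60 against 24, or 71.4% negative against a background of 52.4% over all tested genes. With other scaling factors in edgeR (DESeq2 size factors or upper quartile), 57 were negative and 27 positive. Limma-trend on log2(TPM + 1), which changes the measure and the model together, gave 47 negative and 37 positive, and edgeR with a gene length trend removed gave 50 and 34. The split depended on 2 libraries: without LIPUS library 3, 28 of 84 were negative and the median was 0.02. Without LIPUS library 2, 77 were negative, the median was -0.09, and 16 of 84 had an unadjusted p under 0.05, against 7.28% of all genes in that fit; 0 passed. Every LIPUS library lay below every LPS library in CPM for 3 of 84 genes (Ndufb1, Uqcc3 and Atp5g3) against a background of 4.63%. The reverse held for 0 genes, against a background of 5.09%.

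**Figure D2:**
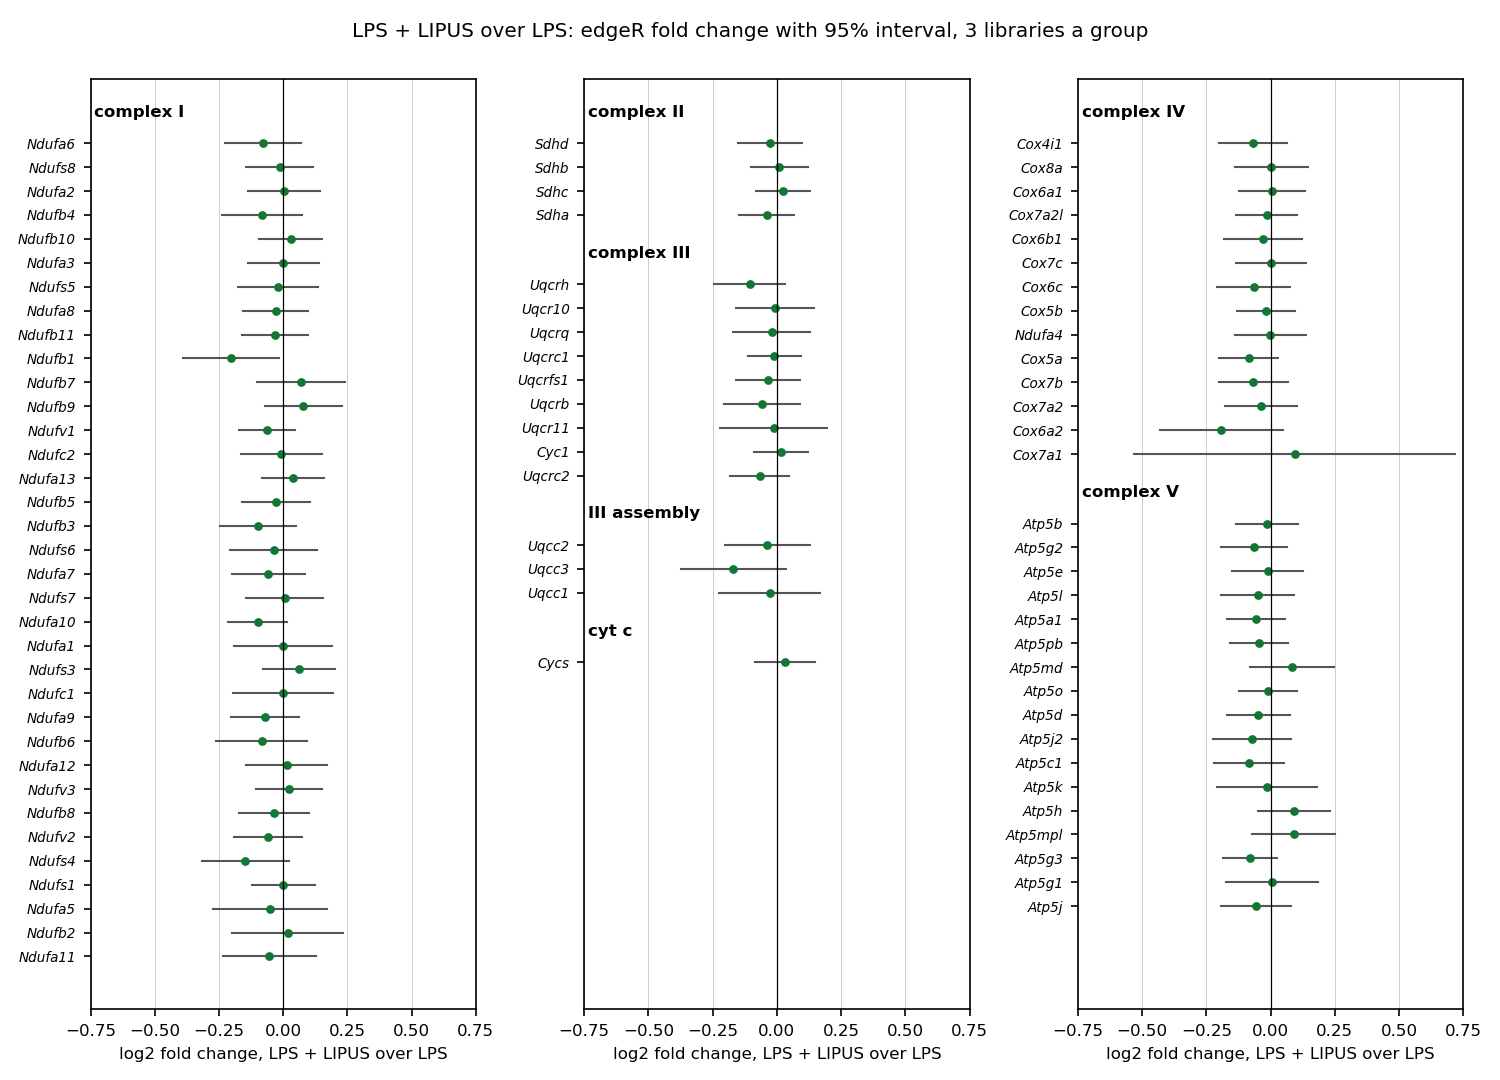
Log2 fold change of LPS + LIPUS over LPS for 83 of the 84 tested genes (points) with 95% intervals from edgeR (bars), 3 libraries a group, grouped by complex. The points lie between -0.20 and 0.09, and the interval of Ndufb1 is the one that leaves out 0; Cox7a1, with 122 counts in all, has the widest.

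Complex I had 36 tested genes, with a median log2 fold change of -0.03, 12 positive and 24 negative. Its nuclear core subunits carry the flavin and the iron-sulphur clusters. Ndufv1, which oxidises NADH, had 161, 165 and 167 TPM in LPS and 162, 156 and 161 TPM in LIPUS. Its partners in electron input, Ndufv2 and Ndufs1, had means of 73.6 ± 0.79 and 53.7 ± 2.0 TPM in LPS and 71.5 ± 3.1 and 54.6 ± 5.2 TPM in LIPUS (SD, n = 3). The groups overlapped for all 3 genes. On the side of ubiquinone, the core subunit Ndufs8 had 246 ± 4.3 TPM in LPS and 246 ± 10 TPM in LIPUS. Ndufs3 and Ndufs7, core subunits on that side, had log2 fold changes of 0.06 and 0.01. Ndufs3 had 106, 111 and 110 TPM in LPS and 116, 116 and 114 TPM in LIPUS, higher in every LIPUS library, while its CPM overlapped. These core genes thus differed among themselves by more than 4-fold in level, from Ndufs1 to Ndufs8, while the 95% interval of each fold change spanned 0.

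Ndufb1, a small accessory subunit of the membrane arm (chr12:101968096-101975738 on mm10), had the smallest p of all OXPHOS genes. Its level was 188, 203 and 188 TPM in LPS libraries 1 to 3 and 177, 176 and 156 TPM in LIPUS libraries 1 to 3. All LIPUS values lay below all LPS values, and LIPUS library 3 was the lowest. The log2 fold change was -0.20 ± 0.09 (SE), with an unadjusted p of 0.0335 and an adjusted p of 0.999 in edgeR's quasi-likelihood test, so it did not pass. Without LIPUS library 3 the log2 fold change was -0.11.

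Ndufs4, an accessory subunit needed for a complete matrix arm and mutated in Leigh syndrome in humans, had 64.5, 61.1 and 63.8 TPM in LPS. In LIPUS it had 55.8, 61.2 and 56.0 TPM. LIPUS library 2 lay among the LPS values, and the log2 fold change of -0.15 ± 0.08 did not pass (edgeR, adjusted p 0.999); leaving out that library gave -0.24 and leaving out LIPUS library 3 gave -0.09. Ndufa10, another accessory subunit, had 133 ± 4.6 TPM in LPS and 125 ± 2.3 TPM in LIPUS, a log2 fold change of -0.10 ± 0.05; LPS library 1 and LIPUS library 1 both stood at 128 TPM, and the groups overlapped in CPM. Ndufa6, which binds the acyl carrier subunit and holds the NRF1 core shown above, had the highest deposited TPM of complex I, 266 over all libraries. Ndufa11 had the lowest of the tested ones at 22.0 TPM, a 12.1-fold span. On the length of the best-counted transcript, the highest was Ndufa7, another accessory subunit, at 309 TPM. The highest positive value in complex I was that of Ndufb9, with a log2 fold change of 0.08 ± 0.07. Its TPM was higher in every LIPUS library (166 to 178) than in any LPS library (156 to 163), but in CPM LIPUS library 3 lay below all LPS libraries. Ndufb4b and Ndufb4c, copies of Ndufb4, had 21 and 4 counts in LPS and 15 and 1 in LIPUS and were below the filter. Ndufb4b lies inside Dock8 on the same strand, so its few reads cannot be assigned with certainty.

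Complex II, the succinate dehydrogenase that also serves the citric acid cycle, had the narrowest span of subunit levels, over the fewest genes of complexes I to V. The flavoprotein Sdha had 157, 158 and 160 TPM in LPS and 151, 152 and 164 TPM in LIPUS. The iron-sulphur subunit Sdhb had 222, 221 and 230 TPM in LPS and 229, 224 and 232 TPM in LIPUS. The membrane anchors Sdhc and Sdhd had means of 184 ± 5.7 and 255 ± 3.3 TPM in LPS and 190 ± 13 and 253 ± 8.5 TPM in LIPUS. The groups overlapped for the 4 genes, and their log2 fold changes were -0.04, 0.01, 0.02 and -0.03 for Sdha, Sdhb, Sdhc and Sdhd. The highest and lowest of the 4 mRNAs differed by 1.61-fold, against 4.97-fold in complex III, 13.8-fold in complex V and 201-fold among the tested genes of complex IV. Such a span tends to widen with the number of genes, here 4, 9, 17 and 14. The low end of complex IV was the isoform gene Cox7a1 at 7.72 TPM. On the length of the best-counted transcript, the complex V span was 9.20-fold.

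Complex III had 9 tested genes with a median log2 fold change of -0.02, 1 positive (Cyc1) and 8 negative. Uqcrh, the hinge protein that docks cytochrome c, stood out in level at 800 TPM, while the other 8 lay between 161 TPM (Uqcrc2, a core protein) and 307 TPM (Uqcr10). Uqcrh had 872, 808 and 797 TPM in LPS and 788, 803 and 735 TPM in LIPUS. LPS library 1 was high and LIPUS library 3 low, the groups overlapped, and the log2 fold change was -0.11 ± 0.07 (edgeR, adjusted p 0.999). It was -0.03 without LIPUS library 3, -0.18 without LIPUS library 2 and -0.05 without LPS library 1. Its catalytic partners had like levels in both groups. The Rieske iron-sulphur protein Uqcrfs1 had 226 ± 5.7 TPM in LPS and 224 ± 9.8 TPM in LIPUS, and cytochrome c1, Cyc1, had 168 ± 6.0 and 172 ± 5.1 TPM. Uqcrc2 and the small subunit Uqcrb had log2 fold changes of -0.07 ± 0.05 and -0.06 ± 0.07. Cycs, the mobile electron carrier, had 55.3, 57.6 and 57.1 TPM in LPS and 60.6, 57.3 and 58.1 TPM in LIPUS, a log2 fold change of 0.03 ± 0.06 with overlapping groups.

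The assembly factors Uqcc1, Uqcc2 and Uqcc3 help the mitochondrially encoded cytochrome b to be made and built in. Uqcc3 had 17.2, 18.3 and 16.5 CPM in LPS and 16.1, 15.1 and 15.1 CPM in LIPUS. The groups did not overlap in CPM but did in TPM, where LPS library 3 had 40.7 and LIPUS library 1 had 41.0. Its log2 fold change was -0.17 ± 0.10 (edgeR, unadjusted p 0.0985, adjusted p 0.999). Uqcc2 and Uqcc1 had log2 fold changes of -0.04 and -0.03. Uqcc1 was the lowest tested gene at 5.38 TPM, but 20.8 TPM on the length of its best-counted transcript.

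Complex IV had 14 tested genes and 6 below the filter. Several of its subunits exist as a general form and a form known from heart and muscle, lung or testis. Cox4i1, the general form of subunit 4, was the most abundant OXPHOS mRNA, with 1599, 1545 and 1591 TPM in LPS and 1487, 1577 and 1503 TPM in LIPUS. In TPM, LIPUS library 2 lay within the range of the LPS libraries and the other LIPUS libraries below it. In CPM, LIPUS library 2 was the highest at 615, against 562 to 602 in LPS, and the other LIPUS libraries were again below LPS. The log2 fold change was -0.07 ± 0.06. Cox8a had 1321 ± 13 TPM in LPS and 1337 ± 86 TPM in LIPUS, and Cox6a1 had 1135 ± 20 and 1151 ± 48 TPM. The wider SD in LIPUS came with library 2 at the top and library 3 at the bottom for both.

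Of the muscle forms, Cox6a2 was present: it had 38.0, 47.6 and 45.4 TPM in LPS and 37.5, 38.8 and 39.7 TPM in LIPUS. It made up 3.70 ± 0.37% of Cox6a TPM in LPS and 3.25 ± 0.19% in LIPUS. LPS library 1 lay among the LIPUS values, and the log2 fold change was -0.19 ± 0.11 (edgeR, unadjusted p 0.108, adjusted p 0.999). Cox7a1 was lower, with 18 to 23 counts per library and 0.71 ± 0.05% of Cox7a TPM in LPS. Its log2 fold change of 0.09 ± 0.30 had the widest interval of all OXPHOS genes. Most Cox7a TPM, 87.3 ± 0.23% in LPS and 87.4 ± 0.47% in LIPUS, came from Cox7a2l, a relative known as a supercomplex factor. Cox7a2, the general form, took 12.0 ± 0.20% and 11.8 ± 0.60%. Cox7a2 overlaps Tmem30a on the same strand over 2482 bases, so its count is uncertain.

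The heart and testis forms Cox8b, Cox6b2, Cox7b2 and Cox8c had 1, 7, 0 and 0 counts over all 6 libraries. A count of 0 in a library allows up to 3 counts, or 0.190 to 0.210 CPM. The single-form subunits Cox5a and Cox5b, which bind to the core from the matrix side, had 224 ± 5.8 and 356 ± 13 TPM in LPS and 214 ± 4.7 and 356 ± 6.9 TPM in LIPUS. Cox5a had a log2 fold change of -0.09 ± 0.06 (edgeR, unadjusted p 0.135, adjusted p 0.999), with LIPUS library 2 among the LPS values in CPM. Cox6b1, Cox6c, Cox7b and Cox7c had log2 fold changes between -0.07 and 0.00. Ndufa4 had 327 ± 14 TPM in LPS and 330 ± 14 TPM in LIPUS.

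**Figure D3:**
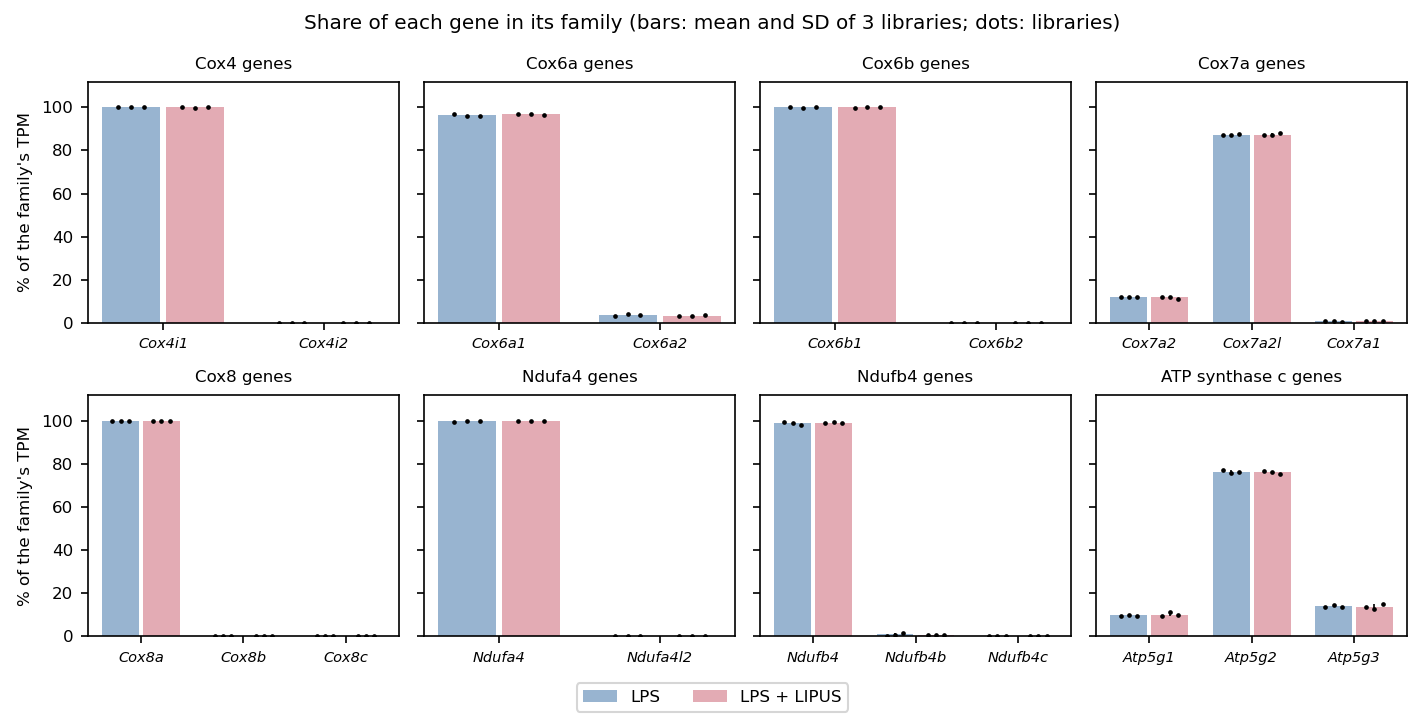
Share of each gene in the TPM of its family, in percent, for the Cox4, Cox6a, Cox6b, Cox7a, Cox8, Ndufa4, Ndufb4 and ATP synthase c families (bars, mean of 3 libraries with SD; dots, libraries; blue, LPS; red, LPS + LIPUS). In each family 1 gene holds most of the TPM in both groups, from 76.4% for Atp5g2 to 100.0% for Cox8a in LPS.

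The 2 OXPHOS genes in the authors' deposited list of changed genes were complex IV paralogues far below the filter. The list holds 351 genes, or 0.898% of the table. Ndufa4l2, known as a hypoxia-induced relative of Ndufa4, had 9, 3 and 6 counts in LPS and 1, 0 and 3 in LIPUS. The libraries overlapped, and the summed counts scaled for depth gave a ratio of 0.237 with an exact 95% interval of 0.0583 to 0.720 that covers counting error only. The authors' deposited table gives it a log2 fold change of -1.98 and an unadjusted p of 0.00555. Cox4i2, the lung and hypoxia form of subunit 4, had 1, 0 and 1 counts in LPS and 2, 11 and 0 in LIPUS, so 11 of its 15 reads came from LIPUS library 2. The ratio was 6.93 with an interval of 1.57 to 63.3, and the authors' deposited table gives a log2 fold change of 2.58 with an unadjusted p of 0.0294. Adjusted over all genes by the Benjamini-Hochberg method, both p-values of the authors' deposited table become 1. In edgeR without the filter, the adjusted p was 0.899 for both. Cox4i2 overlaps Bcl2l1, a gene with 30583 counts, on the opposite strand over 6308 bases, and Ndufa4l2 overlaps Shmt2 over 32 bases. Whether reads were counted by strand is not given in the sources used here, so reads of these pairs cannot be told apart.

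Complex V had 17 tested genes, with a median log2 fold change of -0.05, 4 positive and 13 negative. The catalytic head subunits beta and alpha, Atp5b and Atp5a1, had 1226 ± 20 and 605 ± 3.6 TPM in LPS and 1231 ± 40 and 590 ± 15 TPM in LIPUS. The gamma subunit Atp5c1, the shaft that turns inside the head, had 270 ± 13 and 258 ± 8.3 TPM, a log2 fold change of -0.08 ± 0.06. The stalk subunit d, Atp5h, had the highest positive value of the complex: 184, 191 and 191 TPM in LPS and 188, 217 and 204 TPM in LIPUS. LIPUS library 1 lay among the LPS values in TPM but below them in CPM, at 114 against 116 to 119. The log2 fold change was 0.09 ± 0.07 (edgeR, unadjusted p 0.196, adjusted p 0.999). Leaving out LIPUS library 2 gave -0.01, and leaving out LIPUS library 1 gave 0.16.

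Subunit c, which forms the membrane ring, is encoded by 3 genes whose mature proteins are identical. Atp5g2 supplied 76.4 ± 0.70% of their TPM in LPS and 76.1 ± 0.77% in LIPUS. Atp5g3 supplied 13.9 ± 0.44% and 13.8 ± 1.0%, and Atp5g1 9.74 ± 0.26% and 10.1 ± 0.84%. Atp5g3 had 127, 132 and 131 CPM in LPS and 125, 123 and 121 CPM in LIPUS, without overlap. In TPM, LPS library 1 lay among the LIPUS values, and the log2 fold change was -0.08 ± 0.05 (edgeR, unadjusted p 0.123, adjusted p 0.999). Its listed length of 1702 bases is 2.35 times that of its best-counted transcript, which lowers its TPM and its share by that factor relative to Atp5g2.

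Atp5j, which encodes the coupling factor F6 and shares its start region with Gabpa, was the lowest complex V mRNA at 89.1 TPM. It had 57.4, 58.3 and 54.6 CPM in LPS and 55.3, 56.8 and 51.5 CPM in LIPUS. Gabpa had 53.2, 48.1 and 49.8 CPM in LPS and 58.8, 51.8 and 55.1 CPM in LIPUS. The groups overlapped for both genes, and their log2 fold changes were -0.06 ± 0.06 and 0.13 ± 0.07. The genes overlap over 967 bases on opposite strands, so part of their reads cannot be told apart.

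The transcript table gave 171 transcripts of these genes, of which 156 were tested. Past an adjusted p of 0.05 there were 0, and the share over all 52257 transcripts was 0%. At an unadjusted p under 0.05, 9 of the 156 transcripts were lower, against a background of 1.63%. Of these 9, 7 belonged to Atp5j and 1 each to Ndufb1 and Atp5g3. A read can count for several transcripts in this table, so the Atp5j transcripts are not separate observations. The Atp5j transcript NM_001358499.1, with the smallest p, had 315, 351 and 330 counts in LPS and at most 274 in a LIPUS library, a log2 fold change of -0.23 ± 0.09 with an adjusted p of 0.766 in edgeR's quasi-likelihood test. The best-counted Atp5j transcript, NM_001302213.1, with 4884 of the gene's 5001 counts, had a log2 fold change of -0.05 ± 0.07 (edgeR, adjusted p 1.00). The authors' deposited list of changed transcripts, 0.735% of their table, holds 4 transcripts of these genes, 3 of Ndufa4l2 and 1 of Cox4i2.

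The clearest pattern among the OXPHOS genes was a shared shift between the LIPUS libraries. Relative to the mean of the LPS libraries, the median OXPHOS gene lay at 0.02, -0.01 and 0.01 log2 CPM in LPS libraries 1 to 3. In LIPUS libraries 1 to 3 it lay at -0.04, 0.07 and -0.13. The SD of these medians was 0.01 in LPS and 0.10 in LIPUS. LIPUS library 3 was below LIPUS library 2 for 81 of 84 genes, was the lowest of the 6 libraries for 63, and LIPUS library 2 was the highest for 54. LIPUS library 2 was above the LPS mean and LIPUS library 3 below it in complexes I to V. In complex II they lay at 0.06 and -0.04, and in complexes I, III, IV and V at 0.06 to 0.08 and at -0.12 to -0.17. The median SD of an OXPHOS gene was 0.05 log2 CPM within LPS and 0.12 within LIPUS, against 0.09 and 0.11 for all tested genes.

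**Figure D4:**
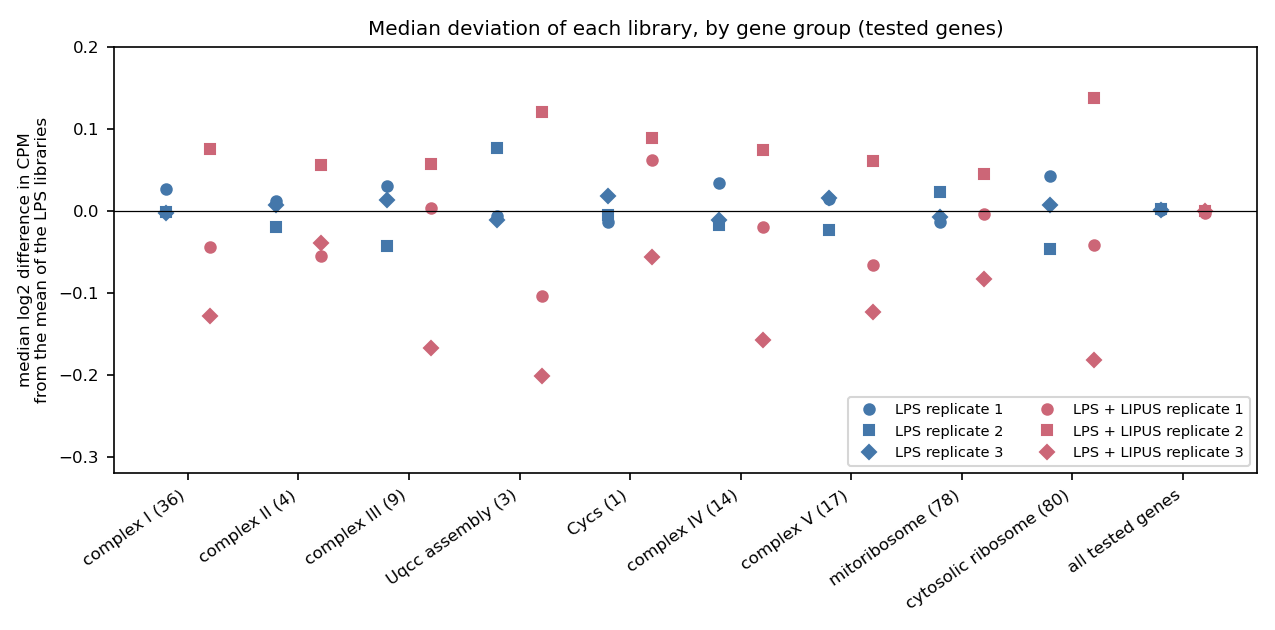
Median log2 difference in CPM from the mean of the LPS libraries, for each library (symbol shape, replicate; blue, LPS; red, LPS + LIPUS) and gene group, with the number of tested genes in brackets. LIPUS library 2 lies above 0 and LIPUS library 3 below 0 in every OXPHOS complex and in both groups of ribosomal protein genes, while the medians of all tested genes lie close to 0.

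The shift was not particular to OXPHOS genes. The 80 tested genes for cytosolic ribosomal proteins lay at 0.14 in LIPUS library 2 and -0.18 in LIPUS library 3, and the 78 for mitochondrial ribosomal proteins at 0.04 and -0.08. It moved with gene length. In the shortest of 8 length bins (54 to 1387 bases), all genes with at least 10 CPM had medians of 0.08 in LIPUS library 2 and -0.12 in LIPUS library 3. In the longest bin the signs were opposite, with -0.04 and 0.08. OXPHOS genes are short: the median length was 922 bases for the 84 tested ones against 3496 for all tested genes, and 61 of 84 (72.6%) fell in the shortest bin. With a trend over gene length removed from each library, the median OXPHOS gene lay at -0.03, 0.01 and -0.03 in LIPUS libraries 1 to 3, and the SD fell to 0.02. The fold changes then had a median of -0.01, with 34 positive and 50 negative, and 0 passed.

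**Figure D5:**
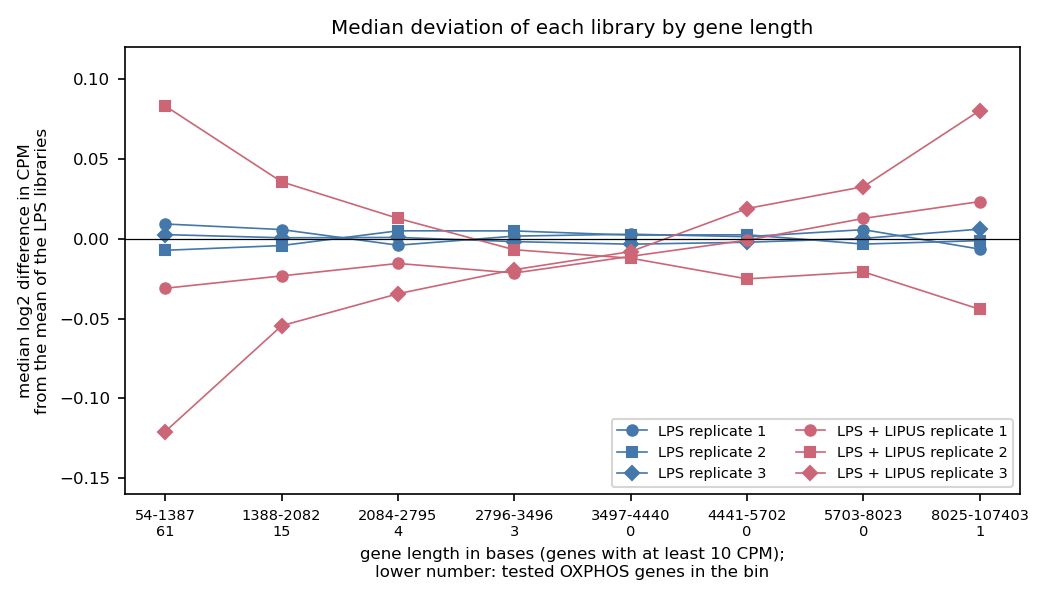
Median log2 difference in CPM from the mean of the LPS libraries (1 line per library, genes with at least 10 CPM) over 8 bins of gene length in bases; the lower number under each bin is the count of tested OXPHOS genes in it. LIPUS library 2 runs from 0.08 in the shortest bin to -0.04 in the longest and LIPUS library 3 from -0.12 to 0.08, while the LPS libraries stay within 0.01 of 0.

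Other genes of the pathway gave no call either. Of 49 tested assembly factors, 22 had positive and 27 negative fold changes, with a median of -0.02 and 0 past the threshold. In CPM, 3 of the 49 had every LIPUS library below every LPS library, against 4.63% of all tested genes. The reverse held for 1, against 5.09%. The smallest p was that of Sdhaf4, an assembly factor of complex II, with 4.32, 5.59 and 5.25 CPM in LPS and 3.33, 3.65 and 4.14 CPM in LIPUS. Its groups did not overlap, and its log2 fold change was -0.45 ± 0.18 (edgeR, unadjusted p 0.0265, adjusted p 0.999). Tmem70, an assembly factor of the ATP synthase, had a log2 fold change of -0.14 ± 0.09. Of 5 tested subunits or partners outside the naming rule, 1 was positive and 4 negative, and 0 passed. They include Atpif1, the ATP synthase inhibitor, at -0.09 ± 0.07, and Higd1a at -0.11 ± 0.11.

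Of 19 tested regulators of mitochondrial biogenesis, 10 were positive and 9 negative, with a median of 0.00 and 0 past the threshold. Every LIPUS library lay below every LPS library in CPM for 3 of the 19, against 4.63% of all tested genes. The reverse held for 0, against 5.09%. Polg, the mitochondrial DNA polymerase, had 34.7, 38.2 and 34.0 CPM in LPS and 32.4, 28.6 and 31.2 CPM in LIPUS, without overlap. Its log2 fold change was -0.21 ± 0.08 (edgeR, unadjusted p 0.016, adjusted p 0.963). The coactivator Ppargc1a, which encodes PGC-1α, was below the filter, with 4 counts in LPS and 4 in LIPUS. The import machinery had 12 positive and 12 negative of 24 genes, and the mitochondrial ribosome 37 positive and 41 negative of 78; the cytosolic ribosome had 17 positive and 63 negative of 80, and 0 passed in each. The genes with the smallest p in these lists were Timm8a1 and Tomm22 of the import machinery, at -0.27 ± 0.13 and -0.10 ± 0.08, Mrps33 and Mrpl54 of the mitochondrial ribosome, at -0.20 ± 0.09 and 0.24 ± 0.11, and Rpl29 and Rpl36a of the cytosolic ribosome, at 0.14 ± 0.08 and -0.09 ± 0.07. These are log2 fold changes with standard errors, and each had an adjusted p of 0.999 in edgeR.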

How the data were processed

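RNA was measured in 3 LPS and 3 LPS with LIPUS samples, grouped by their labels. Libraries were prepared from poly(A) RNA with NEBNext Ultra reagents and read paired-end, per the labels' protocols. Of tools and builds, bcl2fastq and mm10 appear in the submitters' processing notes; aligner, counter, annotation release and strand setting were not found in the labels or files. The authors deposited raw read counts per gene and per transcript, with lengths and TPM (count over length, scaled to a fixed total). The authors' deposited comparison tables hold a log2 fold change, an unadjusted p-value and a normalised count per library, a signal whose method the files do not state and which was not used here.

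The tests were computed in R 4.3.3 from the counts, except limma-trend, which used the deposited TPM. The main ones were edgeR 4.0.16 quasi-likelihood tests with TMM scaling, filterByExpr (minimum count 10) and Benjamini-Hochberg adjustment over all features tested. They were two-sided, with a threshold of 0.05. Summed levels, ratios between complexes, ranks and family shares used the deposited TPM, and the motif search was run outside R. The filter kept 99.9% of the counts. Replicates varied with a biological coefficient of variation of 5.84%. CPM are relative to TMM-scaled library sizes. The test was tested on simulated data. p-values measure the spread between these samples, which may be technical. Intervals on counts and the limit for a count of 0 cover counting error only.

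The genes, lists and alternatives were chosen with earlier results of these data known. Named were, in each complex, the highest and lowest tested gene by TPM and up to 3 with the smallest p; the complex I core, complex II, cytochrome, isoform and subunit c genes; genes below the filter or in the authors' list; and up to 2 per other list with the smallest p. Ndufb8, Ndufb9, Uqcr10, Uqcrfs1 and the other genes outside this rule were picked for their role or value. A tested gene is counted in all totals but not reported here by name. Alternatives were DESeq2 1.42.0, limma 3.58.1 (voom and trend), other scalings and filters, a replicate block, a length trend (lowess) and leaving out each library. Motif cores were searched in RefSeq windows of GRCm38.p6, the assembly mm10 is built on. Positions are as deposited or as RefSeq gives them, 1-based, and exon overlaps are from GENCODE M21.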

Additional observations from a re-analysis of the deposited data

How the results depend on the processing

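No OXPHOS gene passed the threshold under the alternatives run: DESeq2, limma-voom, limma on log2 TPM with either pseudocount (1 or 0.1), other scalings and filters, an adjusted p of 0.1, the length trend removed and each library left out in turn. No transcript of one passed without the filter, with the replicate block or with a library left out; the other settings were not run on transcripts. The smallest adjusted p of an OXPHOS gene was 0.401, shared among the named genes by Ndufs4 and Ndufb1, without LIPUS library 2 (edgeR). Over all genes the count of calls was 0 with the filter, 31 without it, 5 with the replicate block and 0 to 6 with a library left out. Each alternative on all 6 libraries moved the OXPHOS median and the medians of complexes I to V by less than their spread between libraries. That spread, 0.07 for the OXPHOS median of -0.03, is wider than the median itself, so it cannot show whether a sign holds. The complex II median, -0.009, became 0.008 with limma-trend on log2(TPM + 1) and 0.006 with the length trend removed. For a left-out library the spread decides nothing, because it includes that library. Dropping LIPUS library 3 turned the OXPHOS median from -0.03 to 0.02, and the medians of complexes I to V became positive too. Dropping LIPUS library 2 instead took the OXPHOS median to -0.09. The count of negative fold changes, 60 of 84, was 47 to 65 across the tools, scalings, filters and the length correction, and 28 to 77 when 1 library was left out. The level ratios to complex I depended on the gene length used: on the length of the best-counted transcript they were 1.38 instead of 1.51 for complex II, 1.48 instead of 1.64 for complex III, 2.51 instead of 2.80 for complex IV and 2.47 instead of 2.36 for complex V. The listed length of 6 genes is over 1.5 times that of this transcript. Of 720 values over 45 named genes, 687 moved by less than their standard error; the other 33 came from leaving out LIPUS library 2 or 3. These fits reuse the same libraries, so small moves are likely in any case and the count does not measure stability. Same-numbered libraries had correlations of deviations of 0.008, -0.072 and 0.0099, and differently numbered ones -0.065 to 0.059. These values show no pairing by replicate number, but they cannot show whether same-numbered samples were handled together. With the replicate block, 0 OXPHOS genes passed and 64 fold changes were negative. Low counts limit Cox7a1 and the 8 genes below the filter.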
